A study of Bos taurus with 6 samples.

Results

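The enzymes that make serine and pass its carbon to folate were followed in bovine (Bos taurus) blastocysts. They comprised 10 genes chosen by symbol: PHGDH, PSAT1, PSPH, SHMT1, SHMT2, MTHFD1, MTHFD2, MTHFD2L, MTHFD1L and ALDH1L2. All 10 were found among the 12826 genes of the count table, and all 10 were among the 12732 genes kept for testing. The list was drawn up with results of these libraries known, in which MTHFD2 was lower in embryos given beta-hydroxybutyrate (BHB), a ketone body. The values for BHB against control are therefore a description of the enzymes, and the calls of MTHFD2 given with them are no independent support.

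The BHB group was 3 libraries from pools of day 7 blastocysts treated with BHB, and the control group was 3 libraries from pools of day 7 blastocysts not given it. Embryos of both groups came from a slaughterhouse source and were produced in vitro, and no genetic change is named for either group. The labels give neither the BHB dose nor the length of exposure, the breed or the size of a pool. Polyadenylated RNA of whole embryos was sequenced, and the numbers 1 to 3 follow the order of deposit within a group. No label ties the pools to separate culture runs. A p-value therefore measures the spread between these libraries only, which may be technical.

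Serine is made from an intermediate of glycolysis in a short chain of steps. Serine hydroxymethyltransferases then split it into glycine and a carbon unit that is carried on tetrahydrofolate. In mitochondria this unit is oxidised to formate, which leaves for the cytosol, where folate enzymes use it for purines, thymidylate and methionine. MTHFD2 is known in mouse and human as the dehydrogenase of this mitochondrial route in embryonic and dividing cells, and its gene as a target of the stress transcription factor ATF4. Early embryos draw on the pathway for nucleotides and for the methyl groups of chromatin.

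Total counts were 7348949, 7238259 and 6440732 in BHB libraries 1 to 3 and 7925889, 7962872 and 8176648 in control libraries 1 to 3, so the BHB libraries were the shallower ones. Levels are given in CPM, a count relative to the TMM-scaled total of its library, and may be compared between libraries for a gene but not between genes, since transcript lengths were not used. Of the trophectoderm markers 7 of 7 genes were tested, with summed levels of 8303 to 13453 CPM in BHB and 10526 to 17125 CPM in control libraries. The keratins KRT8 and KRT18 (2078 to 12283 CPM) made up most of each sum. GATA3, TFAP2C and TEAD4 were at 57.4 to 297 CPM, and CDX2 and GATA2 only at 3.71 to 10.9 CPM. Of the epiblast and the primitive endoderm markers, 4 of 5 genes each were tested. Of the markers of cumulus and granulosa cells 2 of 8 genes were tested, FSHR and CYP19A1, with summed levels of 19.99 to 24.5 CPM in BHB and 19.8 to 26.8 CPM in control libraries. Of those of the oocyte 2 of 7 were tested, ZP3 and OOEP (10.5 to 18.8 CPM in BHB and 11.8 to 15.6 CPM in control libraries). SOX2, SOX17, 6 cumulus markers, 5 oocyte markers and 5 of 5 blood markers were not found by symbol among the 12826 genes. They were therefore not analysed here.

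The authors' model set BHB library 1 beside control library 1, 2 beside 2 and 3 beside 3, as a refit of their deposited results showed. These sets are called pairs 1 to 3. Differences within a pair are given as log2 of BHB over control.

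MTHFD2, the NAD-dependent methylene-tetrahydrofolate dehydrogenase and cyclohydrolase of the mitochondrion, was lower with BHB. Its level was 202, 170.2 and 138 CPM in BHB libraries 1 to 3, against 326, 287 and 199 CPM in control libraries 1 to 3. On these TMM-scaled levels the 2 groups met at their edges, since BHB library 1 was slightly above control library 3. The order of these 2 libraries depends on the scaling. By total counts alone BHB library 1 (1499 of 7348949 counts) was slightly below control library 3 (1697 of 8176648). Within pairs the difference was -0.69, -0.76 and -0.53 on the log2 scale, so each BHB pool was below its own control. The means were 169.96 ± 32.1 CPM with BHB and 271 ± 65.0 CPM in controls (SD, n = 3 each), so the BHB mean was 62.7% of the control mean (log2 fold change -0.67, SE 0.21). Counting error alone would give a coefficient of variation of 2.45% for this gene, against 18.9% among BHB and 24.0% among control libraries, so depth did not limit its precision.

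**Figure D1:**
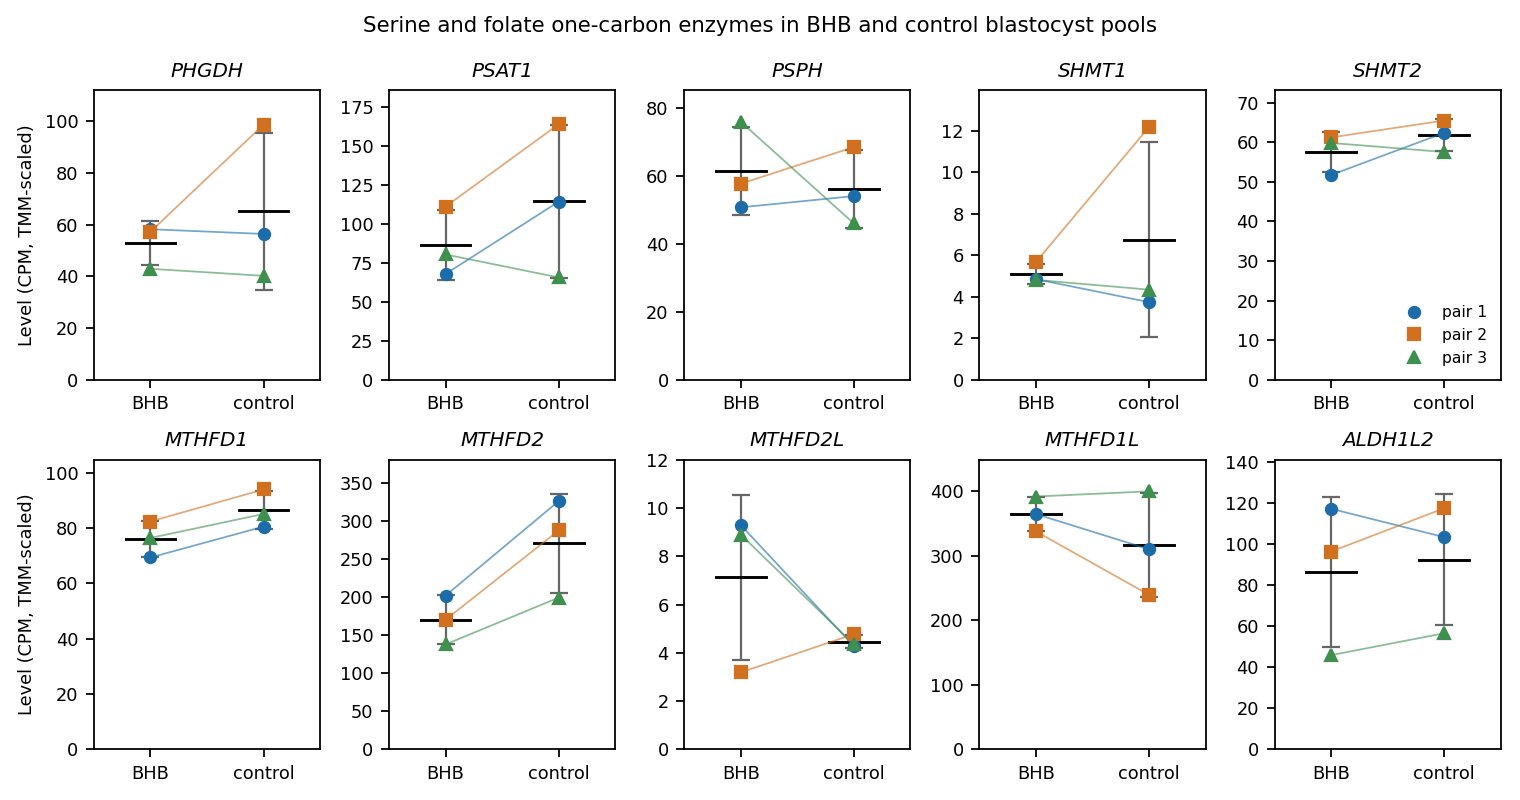
Level of each enzyme gene in CPM (y axis, linear from 0) in BHB and control libraries (x axis); symbols and colours are pairs, thin lines join the libraries of a pair, horizontal bars are means and error bars are SD (n = 3). MTHFD2 sits at 138 to 202 CPM with BHB and 199 to 326 CPM in controls, and all 3 of its lines rise towards control.

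No gene was called between BHB and control by edgeR's quasi-likelihood test without pairing (0% of 12732 genes called at an adjusted p of 0.05), and so 0 of the 10 enzymes were. At an unadjusted p under 0.05 edgeR had 347 genes (2.73%), of which 161 were lower (1.26%), among them 1 enzyme, MTHFD2. DESeq2's Wald test without pairing called 6 genes (0.0468%) and limma-voom 0, with 0 enzymes in either. In the comparison within pairs, the Wald test of DESeq2 called 35 of 10339 genes (0.339%), of which 18 were lower (0.174%), and MTHFD2 was the 1 enzyme among the 18 (log2 fold change -0.67, SE 0.13). This call was known when the enzymes were chosen. In the same design edgeR called 0 genes at an adjusted p of 0.05 and 11 at 0.1 (0.0864%), of which 5 were lower (0.0393%), MTHFD2 among the 5. The DESeq2 call within pairs was lost without pair 1 (log2 fold change -0.65) or without pair 2 (-0.62), and was kept without pair 3 (-0.73).

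On TMM-scaled levels groups did not overlap in 7.84% of all tested genes and in 0 of the 10 enzymes. Lower levels with BHB in 3 of 3 pairs were found in 15.7% of all tested genes and in 2 of the 10 enzymes, MTHFD2 and MTHFD1. Higher levels in 3 of 3 pairs were found in 14.5% of all tested genes and in 0 enzymes. Fitted fold changes were below 0 in 7 of the 10 enzymes (median log2 fold change -0.14) and in 50.9% of all tested genes (median -0.005). Without control library 2, 4 of the 10 were below 0 and the median was 0.08, so the direction of the list's median rested on that library.

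**Figure D2:**
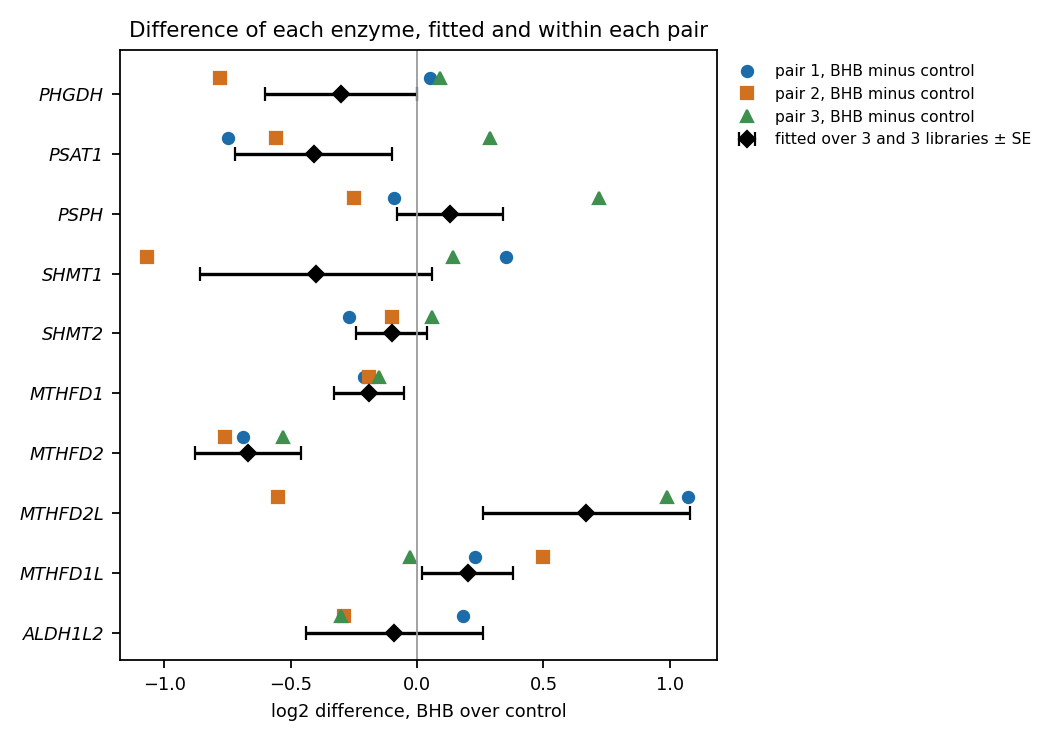
Log2 difference of BHB over control (x axis) for each enzyme (y axis); black diamonds are fitted values over 3 BHB and 3 control libraries with SE bars, and coloured symbols are the differences within pairs 1 to 3. MTHFD2 and MTHFD1 have all 3 pairs below 0, while the other 8 enzymes have pairs on both sides of 0.

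The synthesis of serine begins with PHGDH, the phosphoglycerate dehydrogenase. Its level was 58.2, 57.2 and 42.9 CPM in BHB libraries 1 to 3, against 56.4, 98.6 and 40.2 CPM in control libraries 1 to 3. Control library 2 was far above the other 5, both libraries of pair 3 were the lowest, and the groups overlapped. The fitted log2 fold change of -0.30 (SE 0.30) became 0.13 without control library 2.

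PSAT1, the phosphoserine aminotransferase that acts next, was at 67.8, 111 and 80.2 CPM in BHB libraries 1 to 3, against 114, 164 and 65.5 CPM in control libraries 1 to 3. The difference was -0.75 in pair 1 and -0.56 in pair 2, while pair 3 was higher with BHB at 0.29. The groups overlapped and the fitted log2 fold change was -0.41 (SE 0.31). It was -0.05 without control library 2, the highest library of PSAT1 as it was of PHGDH.

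PSPH, the phosphatase that releases free serine, was at 50.8, 57.8 and 76.0 CPM in BHB libraries 1 to 3, against 54.1, 68.5 and 46.0 CPM in control libraries 1 to 3. BHB library 3 was the highest and control library 3, of the same pair, the lowest of the 6. The difference was -0.09 and -0.25 in pairs 1 and 2 and 0.72 in pair 3 (fitted log2 fold change 0.13, SE 0.21). Without BHB library 3 the fitted value was -0.05. For PHGDH the difference was 0.05, -0.78 and 0.09 in pairs 1 to 3. All 3 steps of serine synthesis were thus lower with BHB in pair 2 and higher in pair 3, and they were mixed in pair 1. None of them kept its direction over the 3 pairs.

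The ratio of PSAT1 to PSPH counts within a library does not depend on scaling between libraries. It was 1.33, 1.92 and 1.06 in BHB libraries 1 to 3, against 2.11, 2.39 and 1.42 in control libraries 1 to 3. The groups overlapped, and in each of the 3 pairs the ratio was lower with BHB, at 0.633, 0.804 and 0.742 of its control. The share of ratios between other genes that keep 1 direction over the pairs was not computed.

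Of the serine hydroxymethyltransferases, SHMT2, the mitochondrial enzyme, was at 51.7, 61.2 and 59.8 CPM in BHB libraries 1 to 3, against 62.4, 65.5 and 57.5 CPM in control libraries 1 to 3. The groups overlapped and the fitted log2 fold change was small (-0.10, SE 0.14). Its coefficient of variation was 8.89% among BHB and 6.49% among control libraries, against 4.73% from counting error alone.

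SHMT1, the cytosolic enzyme, was at 4.85, 5.68 and 4.81 CPM in BHB libraries 1 to 3, against 3.74, 12.2 and 4.34 CPM in control libraries 1 to 3. Control library 2 stood apart with 92 counts (95% exact Poisson interval 9.83 to 15.0 CPM), and the other 5 libraries had 28 to 41 counts. The intervals of those 5 overlapped each other and lay below that of control library 2, and such intervals cover counting error alone. The fitted log2 fold change of -0.40 (SE 0.46) became 0.34 without control library 2.

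MTHFD2L, a paralogue of MTHFD2 that carries out the same mitochondrial reactions, was at 9.30, 3.19 and 8.90 CPM in BHB libraries 1 to 3, against 4.27, 4.77 and 4.34 CPM in control libraries 1 to 3. The control libraries were nearly equal, with BHB libraries 1 and 3 above them and BHB library 2 below. The counts were 69, 23 and 61 with BHB and 32, 36 and 37 in controls. The exact Poisson interval of BHB library 2 was 2.02 to 4.78 CPM and that of BHB library 1 was 7.23 to 11.8 CPM, so these pools differed by more than counting error. Within pairs the difference was 1.07, -0.55 and 0.99, and the fitted log2 fold change was 0.67 (SE 0.41).

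MTHFD1L, the mitochondrial formyl-tetrahydrofolate synthetase that releases formate after the step of MTHFD2, was at 365, 338 and 392 CPM in BHB libraries 1 to 3, against 310.0, 239 and 399.9 CPM in control libraries 1 to 3. The groups overlapped, and control library 2 was the lowest of the 6. The difference was 0.23, 0.50 and -0.03 in pairs 1 to 3 (fitted log2 fold change 0.20, SE 0.18). It was 0.04 without control library 2.

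MTHFD1, the cytosolic enzyme that takes up formate and interconverts the folate forms used for purines and thymidylate, was at 69.4, 82.4 and 76.5 CPM in BHB libraries 1 to 3, against 80.5, 94.0 and 85.1 CPM in control libraries 1 to 3. The groups overlapped only where BHB library 2 was above control library 1. The difference was small and alike in pairs 1 to 3, at -0.21, -0.19 and -0.15 (fitted log2 fold change -0.19, SE 0.14).

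ALDH1L2, the mitochondrial dehydrogenase that oxidises formyl-tetrahydrofolate to CO2 with formation of NADPH, was at 117, 96.3 and 45.8 CPM in BHB libraries 1 to 3, against 103, 117 and 56.5 CPM in control libraries 1 to 3. Both libraries of pair 3 were low and the other 4 were high, whatever the treatment. The fitted log2 fold change between BHB and control was -0.09 (SE 0.35), and it was 0.21 without BHB library 3 and 0.12 without control library 2.

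The count ratio of MTHFD2 to MTHFD1L, consecutive steps of the mitochondrial route, was 0.554, 0.504 and 0.351 in BHB libraries 1 to 3, against 1.05, 1.20 and 0.498 in control libraries 1 to 3. The BHB ratio was 0.527, 0.42 and 0.705 of the control ratio in pairs 1 to 3, and the groups overlapped through control library 3. The means were 0.47 ± 0.105 with BHB and 0.917 ± 0.37 in controls (SD, n = 3 each). Set against SHMT2, the step before it, MTHFD2 had ratios of 3.90, 2.78 and 2.30 in BHB libraries and 5.23, 4.39 and 3.46 in control libraries 1 to 3. The BHB ratio was 0.747, 0.634 and 0.665 of the control ratio in pairs 1 to 3, and the groups overlapped, since BHB library 1 was above control library 3. Both of these ratios were lower with BHB in 3 of 3 pairs, with no scaling between libraries involved. The lower level of MTHFD2 was known when the enzymes were chosen, so its ratios are no independent support. How often ratios of other genes do the same was not computed.

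MTHFD1L set against its cytosolic counterpart MTHFD1 had count ratios of 5.26, 4.10 and 5.13 in BHB libraries and 3.85, 2.55 and 4.70 in control libraries 1 to 3. These were higher with BHB in 3 of 3 pairs, by 1.37, 1.61 and 1.09 times, and the groups overlapped. For this ratio too, the share among ratios of other genes was not computed. The ratio of SHMT2 to SHMT1 counts, at 10.7, 10.8 and 12.4 with BHB and 16.7, 5.37 and 13.2 in controls, showed no shared direction across pairs.

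**Figure D3:**
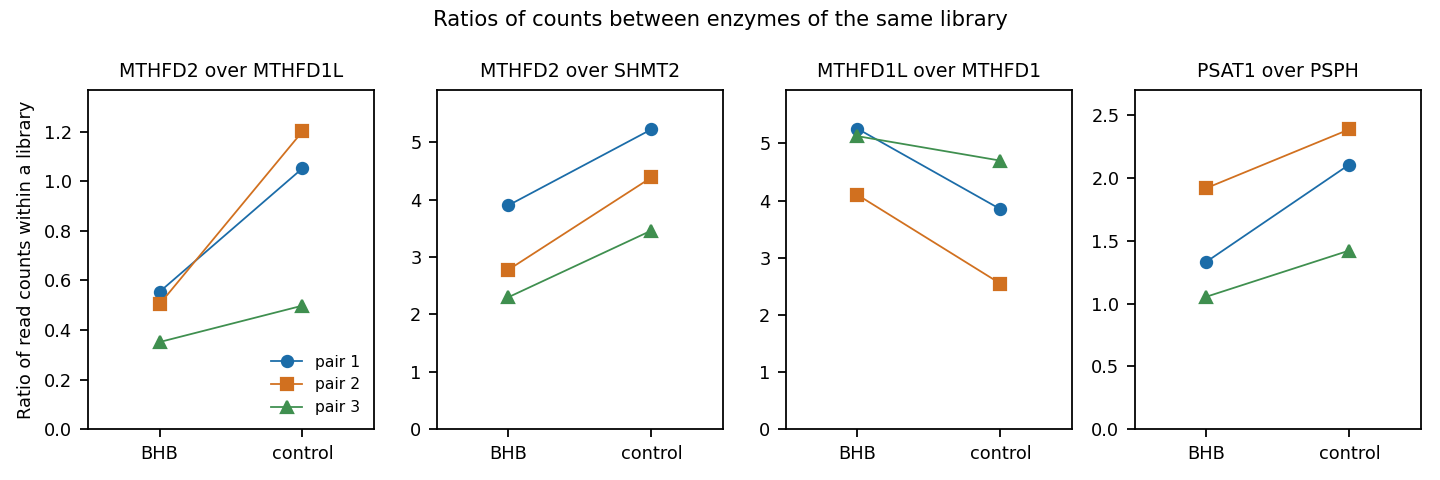
Ratio of read counts of 2 enzymes within a library (y axes, linear from 0) in BHB and control libraries (x axis), with symbols and lines for pairs 1 to 3. The ratios of MTHFD2 to MTHFD1L and to SHMT2 and of PSAT1 to PSPH are lower with BHB in each of the 3 pairs, and that of MTHFD1L to MTHFD1 is higher. Not drawn are the ratios of SHMT2 to SHMT1 (0.64, 2.01 and 0.938 of control in pairs 1 to 3) and of MTHFD2 to MTHFD2L (0.285, 0.887 and 0.337).

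Differences between pairs were tested while treatment was kept as a term. The authors' deposited p-values, known when the enzymes were chosen, cover pair and treatment together, so these calls are not independent of that choice. The quasi-likelihood F test of edgeR called 524 of 12732 genes between pairs (4.12%), and 2 of the 10 enzymes. ALDH1L2 differed between pairs (adjusted p = 0.0102), with means of 110.2, 107 and 51.1 CPM in pairs 1 to 3. It stayed called without any single library in turn (edgeR, adjusted p = 0.00229 to 0.0132). MTHFD2 also differed between pairs (edgeR, adjusted p = 0.0483), with means of 264, 229 and 168 CPM in pairs 1 to 3. Its call was lost without BHB library 1 (adjusted p = 0.0683) or without control library 1, 2 or 3 (adjusted p = 0.0971, 0.0614 and 0.224).

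Pair 3 was thus the lowest for both of these mitochondrial enzymes. PSAT1 and PHGDH, which were highest in pair 2 and lowest in pair 3, did not pass (edgeR, adjusted p = 0.0926 and 0.102). Their pair means were 90.9, 137 and 72.9 CPM for PSAT1 and 57.3, 77.9 and 41.5 CPM for PHGDH in pairs 1 to 3. PSAT1 passed under DESeq2's likelihood ratio test (adjusted p = 0.0217). Both passed without BHB library 3 (edgeR, adjusted p = 0.00042 for PSAT1 and 0.0173 for PHGDH). PHGDH also passed without BHB library 2 (adjusted p = 0.00972), and PSAT1 without control library 3 (adjusted p = 0.0407). Among the other 6 enzymes the adjusted p in edgeR was from 0.17 for MTHFD1L to 0.786 for SHMT2.

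**Figure D4:**
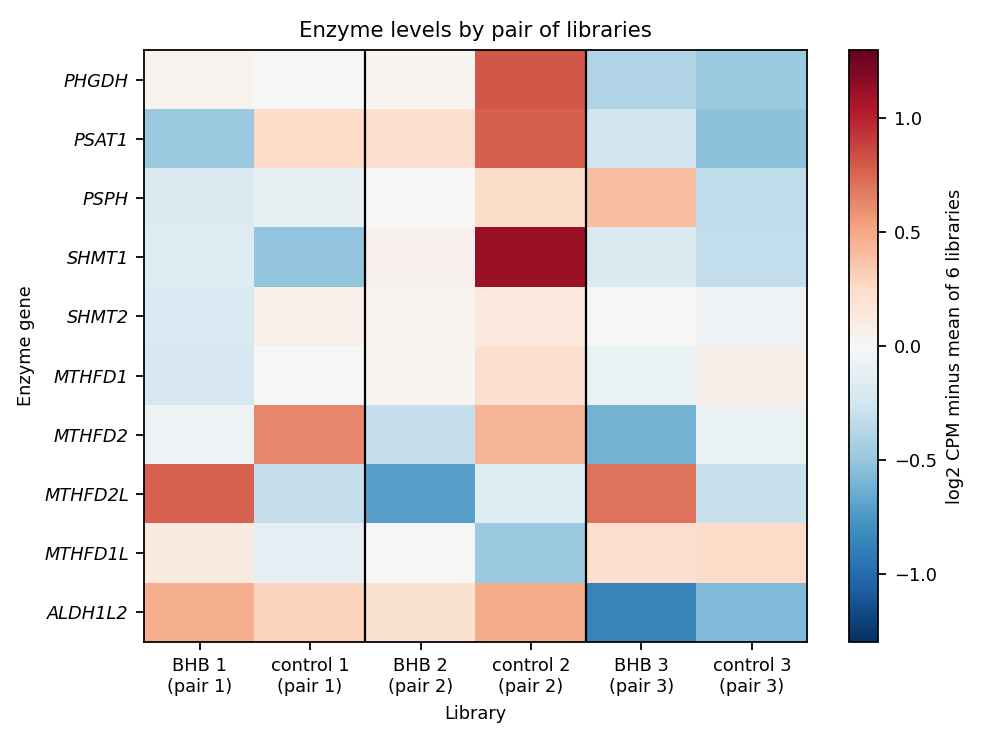
Log2 CPM of each enzyme (rows) minus its mean over 6 libraries (colour, red higher and blue lower) in the BHB and control library of each pair (columns). ALDH1L2 is blue in both libraries of pair 3 and red in the other 4, SHMT1, PHGDH and PSAT1 are darkest red in control library 2, and MTHFD2 is lower in the BHB library of each pair.

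In the deposited results of the authors, 4 of the 10 enzymes had an adjusted p under 0.05: MTHFD2, ALDH1L2, PSAT1 and PHGDH. The deposited table had 646 such genes in all (5.04%). The test behind that deposited column asks about pair and treatment together, so a gene may pass it through differences between pairs alone. The log2 fold change in the authors' deposited table, with the sign turned to BHB over control, was -0.67 for MTHFD2, -0.14 for ALDH1L2, -0.35 for PSAT1 and -0.22 for PHGDH.

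The neighbouring steps were read from 7 lists of 82 genes, of which 66 were tested. By edgeR without pairing 0 of the 66 were called, with 2 at an unadjusted p under 0.05, and DESeq2 within pairs also called 0. Levels were lower with BHB in 3 of 3 pairs for 7 of the 66 (15.7% of all tested genes) and higher in 3 of 3 pairs for 8 (14.5% of all tested genes). Between pairs edgeR called 7 of the 66 (10.6%), against 4.12% of all tested genes: GLDC, GATM, PFAS, FOLR1, SLC46A1, AHCYL2 and CTH, which are named here after their values were seen.

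For folate uptake, retention and reduction, 6 of 8 genes were tested, 0 were called and the median log2 fold change was -0.06. SLC25A32, the mitochondrial folate carrier, was at 6.33, 5.12 and 8.02 CPM in BHB and 10.8, 8.88 and 6.22 CPM in control libraries 1 to 3 (log2 fold change -0.41, SE 0.32). It was lower with BHB in pairs 1 and 2 and higher in pair 3. GGH, which shortens the folate tail, averaged 16.3 ± 2.15 CPM with BHB and 13.9 ± 2.20 CPM in controls (SD, n = 3 each).

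Of the other folate enzymes 5 of 7 were tested and 0 were called (median log2 fold change -0.21). TYMS, the thymidylate synthase, had a log2 fold change of 0.21 (SE 0.35) with levels of 62.4, 39.5 and 57.8 CPM in BHB and 40.7, 24.4 and 72.3 CPM in control libraries 1 to 3. MTFMT, which formylates the mitochondrial initiator tRNA, had 0.16 (SE 0.21). The groups of both genes overlapped.

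Glycine cleavage offers mitochondria another source of folate-bound carbon, and 3 of its 4 genes were tested with 0 called. GLDC, the glycine decarboxylase, was at 66.3, 27.8 and 81.1 CPM in BHB libraries 1 to 3, against 35.0, 21.6 and 54.2 CPM in control libraries 1 to 3. It was higher with BHB in 3 of 3 pairs, by 0.92, 0.36 and 0.58, while the groups overlapped (log2 fold change 0.66, SE 0.41). It also differed between pairs (edgeR, adjusted p = 0.00843), with pair 2 lowest. DLD, the subunit that this system shares with other dehydrogenases, had a log2 fold change of -0.19 (SE 0.18).

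In the methionine cycle and transsulfuration 10 of 13 genes were tested and 0 were called (median log2 fold change -0.05). MTR, the methionine synthase that takes its methyl group from folate, was at 41.8, 20.1 and 23.5 CPM in BHB libraries 1 to 3, against 50.6, 39.4 and 35.6 CPM in control libraries 1 to 3. It was lower with BHB in 3 of 3 pairs and the groups overlapped through BHB library 1 (log2 fold change -0.56, SE 0.28). MAT2A, which makes the methyl donor S-adenosylmethionine, had a log2 fold change of -0.03 (SE 0.13). AHCY, which clears its product, averaged 239 ± 20.8 CPM with BHB and 239 ± 6.72 CPM in controls (SD, n = 3 each), and CBS, the first enzyme of transsulfuration, had a log2 fold change of -0.23 (SE 0.24).

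The list of purine and thymidylate synthesis had 11 of 11 genes tested, 0 called and a median log2 fold change of -0.02. TYMS is not in it and was counted above among the other folate enzymes. GMPS, the GMP synthetase, had -0.24 (SE 0.18). IMPDH1, a dehydrogenase of guanine nucleotide synthesis, was at 5.93, 3.88 and 5.11 CPM in BHB libraries 1 to 3, against 3.47, 2.52 and 3.76 CPM in control libraries 1 to 3, with groups that did not overlap (log2 fold change 0.61, SE 0.35). It was the 1 gene of the 66 whose groups did not overlap, against 7.84% of all tested genes. Its counts were low, at 44, 28 and 35 with BHB and 26, 19 and 32 in controls. Counting error alone would give a coefficient of variation of 18.1%, so the gap between 3.88 and 3.76 CPM was within counting error.

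For serine and glycine transport and use 12 of 15 genes were tested and 0 were called (median log2 fold change 0.07). The neutral amino acid transporter SLC1A5 had 0.29 (SE 0.20) as its log2 fold change, and SPTLC2, a subunit of the enzyme that joins serine to a fatty acid for sphingolipids, 0.20 (SE 0.16).

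The list of ATF4 and its other targets holds none of the enzymes followed here, MTHFD2 included. It had 19 of 24 genes tested, 0 called and a median log2 fold change of 0.01, with 9 of the 19 below 0. ATF4 averaged 427 ± 50.03 CPM with BHB and 483 ± 108 CPM in controls (SD, n = 3 each; log2 fold change -0.18, SE 0.18). ASNS, the asparagine synthetase, was at 222, 265 and 251 CPM in BHB libraries 1 to 3, against 378, 412 and 234 CPM in control libraries 1 to 3. It was lower with BHB in pairs 1 and 2 and slightly higher in pair 3 (log2 fold change -0.47, SE 0.20). Within pairs, DESeq2 called ASNS without pair 3 (log2 fold change -0.71), and no other fit of BHB against control that was run called any of the 66. PYCR1, an enzyme of proline synthesis, was at 4.31, 2.63 and 3.21 CPM in BHB libraries and 7.88, 7.03 and 3.99 CPM in control libraries 1 to 3, lower in 3 of 3 pairs (log2 fold change -0.89, SE 0.38).

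The genes whose levels followed MTHFD2 most closely were sought by the root mean square difference of log2 CPM, each gene centred on its mean over the 6 libraries. Over 11498 genes with a symbol the median of this difference was 0.49, and 6.8% of genes were within 0.3. The 5 closest were UNC93B1, a chaperone of endosomal Toll-like receptors (0.078), LRP2, the endocytic receptor megalin (0.079), ARL16, a small GTPase-like protein (0.085), FERMT2, the integrin activator kindlin-2 (0.104), and MPV17L2, a mitochondrial membrane protein (0.104). These differences describe 6 libraries that share the pairs and the treatment, and a close match among so many genes carries no test. UNC93B1 had 21 to 61 counts a library and ARL16 28 to 68, with counting errors of 15.8% and 14%. Depth therefore limits the rank of both genes. LRP2 was at 1476, 1081 and 892 CPM in BHB and 2049, 1839.8 and 1379 CPM in control libraries 1 to 3.

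**Figure D5:**
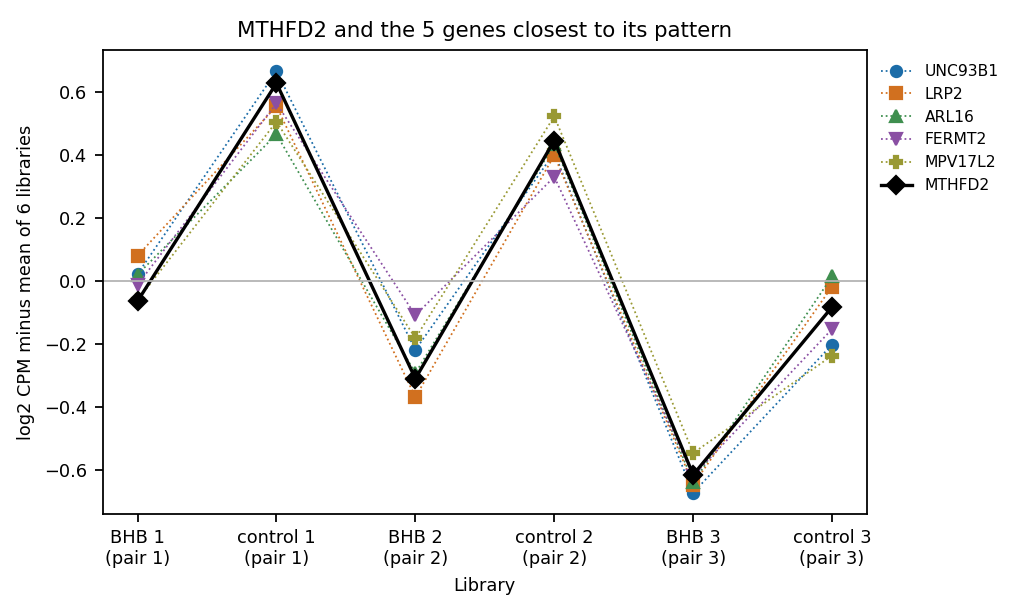
Log2 CPM minus the mean of 6 libraries (y axis) for MTHFD2 (black line) and the 5 genes closest to its pattern (dotted) in the BHB and control library of each pair (x axis). Each of the 6 genes is lower in the BHB library than in the control library of all 3 pairs and lowest in BHB library 3. The 5 genes were picked for closeness to MTHFD2 in these same libraries, so they share its pattern by choice.

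Of the other 9 enzymes none was within 0.3 of MTHFD2. The closest, PHGDH, was at 0.38, and MTHFD2L was farthest at 0.80. A gene with equal levels in all 6 libraries would be at 0.42 from MTHFD2, so PHGDH was hardly closer than no pattern. PHGDH was closer to PSAT1 (0.26) and SHMT1 (0.29), which share its high level in control library 2. GLIPR1 (0.077) and LY75 (0.128) were the genes closest to PHGDH, with counting errors of 10.6% and 21.2%, so depth limits their rank as well.

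Some markers and the depth also differed along with MTHFD2. KRT18, a keratin of the trophectoderm, was at 3149.5, 2969.8 and 2078 CPM in BHB libraries and 4391, 3649 and 2682 CPM in control libraries 1 to 3, lower in 3 of 3 pairs. TFAP2C, a transcription factor of that lineage, was higher in 3 of 3 pairs (log2 fold change 0.37, SE 0.18). Of the 7 trophectoderm markers 4 were below 0, among them GATA3 at only -0.02. Lower in 3 of 3 pairs were 2 of the 7, KRT8 and KRT18, and higher were 3, TFAP2C, CDX2 and TEAD4. NANOG, a factor of the epiblast, was at 30.7, 33.4 and 51.2 CPM in BHB libraries and 72.4, 60.7 and 73.4 CPM in control libraries 1 to 3, with groups that did not overlap. Among the epiblast markers 2 of 4 were below 0, and KLF17 was higher with BHB in 3 of 3 pairs, with groups that did not overlap (log2 fold change 0.72, SE 0.22). Of all tested genes 7.84% had groups that did not overlap, while 15.7% were lower and 14.5% higher with BHB in 3 of 3 pairs. The summed epiblast markers ran from 374 to 416 CPM with BHB and from 393 to 421 CPM in controls, and the summed primitive endoderm markers from 169 to 232 CPM with BHB and from 150.0 to 231 CPM in controls. Among the primitive endoderm markers 2 of 4 were below 0, HNF4A (log2 fold change -0.33, SE 0.38) and GATA4. The level of GATA4 was 1.25 ± 0.486 CPM with BHB and 2.52 ± 0.599 CPM in controls (SD, n = 3 each). Its groups did not overlap, at only 6 to 27 counts a library. The log2 fold change was 0.13 for GATA6 (SE 0.16) and 0.08 for PDGFRA (SE 0.33). BHB library 3 had both the fewest counts and the lowest level of MTHFD2, whereas among controls library 3 had the most counts and the lowest level. The part of these differences in that of MTHFD2 was not tested, and in pools fewer cells of a type and less RNA per cell cannot be told apart.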

How the data were processed

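The members and the neighbouring gene lists were chosen with earlier results of these data known. Per the labels' protocols, RNA was extracted with TRIzol and treated with DNase, libraries came from a stranded mRNA kit and were read on 1 lane of a HiSeq. The submitters' processing notes name STAR, featureCounts and DESeq2. The genome build, annotation, strand setting and filters are not stated there, so reads shared between paralogues or overlapping genes may be split in ways not known. The deposited counts are raw counts per gene. Per the file headers, the authors' deposited table of the comparison holds a mean normalized count (a signal), a log2 fold change with its error, a test statistic (a score) and p-values. Its log2 fold change runs control over BHB by comparison with the counts.

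Counts of 6 libraries were analysed in R 4.3.3. Of 12826 genes, whose totals were 38 counts or more, filterByExpr removed 94. edgeR 4.0.16 gave TMM scaling and the quasi-likelihood test of BHB over control without pairing, with Benjamini-Hochberg adjustment over all 12732 genes and a threshold of 0.05. SE is the log2 fold change divided by the square root of F. Log2 CPM for patterns and differences within pairs used a prior count of 2. DESeq2 1.42.0 and limma 3.58.1 (voom) were alternatives, and scripts were tested on simulated data.

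The labels give no pairs. A DESeq2 likelihood ratio test of pair and treatment together matched the deposited p-values within 1e-06 in 99.98% of genes with libraries of equal number paired, and in 0.398% at most under the other 5 pairings. On this match the numbers were taken as pairs. Deviations of paired libraries from their group means correlated at 0.46, 0.32 and 0.33 over 12732 genes. These correlations were not computed for the other pairings, so they cannot tell the pairings apart.

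Genes named were all 10 enzymes, the 2 genes with the smallest p in each other list, TYMS, SLC25A32, GLDC, MAT2A, AHCY, ATF4 and ASNS, and the genes closest in pattern to MTHFD2 (5) and PHGDH (3); some genes that this rule names are not reported here. GATM, PFAS, FOLR1, SLC46A1, AHCYL2 and CTH fall outside the rule and were named after their values were seen. So were the markers KRT8, GATA3, TEAD4, CDX2, GATA2, GATA6 and PDGFRA. Gene names were matched to a RefSeq table of assembly ARS-UCD2.0, used for names only (12153 as current symbols or loci, 215 as older symbols). No sequences or coordinates are reported here. Poisson intervals (95%, exact) cover counting error only.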

Additional observations from a re-analysis of the deposited data

How the results depend on the processing

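Over 20 alternatives MTHFD2, MTHFD1, MTHFD1L, MTHFD2L, PSAT1 and SHMT2 kept their direction between BHB and control in 20, ALDH1L2 in 18, and PHGDH, PSPH and SHMT1 in 17. DESeq2 called 6 genes without the replicate block and 35 with it, and the block in DESeq2 called 1 enzyme, MTHFD2 (-0.67), while the block changed no other call of the enzymes. Leaving out 1 library, edgeR called 0 to 1 genes, 4 to 7 enzymes were below 0, their median was -0.28 to 0.08 and MTHFD2 was -0.85 to -0.51. In the block without 1 pair, edgeR called 4 to 16 genes and DESeq2 12 to 15 (13 without pair 1), with 0 to 1 enzymes, 0 to 1 genes of the other lists (ASNS), and MTHFD2 at -0.71 to -0.61 in edgeR and -0.73 to -0.62 in DESeq2. Log2 fold changes that turned sign were those of PSPH (-0.05 without BHB library 3, -0.16 in edgeR and -0.17 in DESeq2 in the block without pair 3), ALDH1L2 (0.21 without BHB library 3, 0.12 without control library 2), SHMT1 (0.34 without control library 2, 0.26 in the block without pair 2) and PHGDH (0.13 and 0.07 in the same settings). The cause was not tested. Leaving out 1 library, the ranges of these 4 were -0.05 to 0.30 (PSPH), -0.38 to 0.21 (ALDH1L2), -0.68 to 0.34 (SHMT1) and -0.55 to 0.13 (PHGDH).

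Between pairs, leaving out 1 library gave 300 to 1076 genes called and 1 to 4 enzymes. Scaling by library size alone moved the median of all genes by 0.066. Among the enzymes depth limits MTHFD2L and SHMT1, with counting errors of 15.2% and 15.0%. With 3 libraries a group no outlier was sought.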
